A study of Mus musculus with 17 samples.

Results

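Vitamin A storage is the trait by which quiescent stellate cells of pancreas and liver are known, and 9 genes of retinoid handling were followed here in mouse pancreatic stellate cells. They are a list of named genes: the uptake receptor Stra6, the cytosolic retinoic acid binding proteins Crabp1 and Crabp2, the retinaldehyde dehydrogenases Aldh1a1, Aldh1a2 and Aldh1a3, the retinaldehyde reductase Dhrs3, the retinoic acid hydroxylase Cyp26b1 and the retinoic acid receptor Rarb. All 9 had a row among the 35896 gene IDs of each library, and all 9 were among the 13923 genes that passed the filter on low counts.

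The cells were wild-type lines of C57BL/6J origin, PSC4 and PSC5, embedded in Matrigel and collected on day 4. The study compared 4 media: control medium (5 libraries), 20 ng/mL TGF-beta (4 libraries), medium conditioned by pancreatic tumour organoids (CM, 4 libraries) and CM plus 300 nM neratinib (4 libraries), a drug that blocks the kinase activity of EGFR and ERBB2. Each library carries a line, a replicate number and a passage, with PSC4 replicates 1, 2 and 3 at passages 23, 24 and 25 and PSC5 replicates 1 and 2 at passages 27 and 28. The CM libraries, with or without neratinib, carry the medium code T8 at replicate 1 and T6 at replicate 2, and the labels used here do not say what the codes stand for. In such bulk values, fewer cells of a kind and less RNA per cell cannot be told apart. The labels name passages but no separate mice for the replicates, so the p-values measure the spread between cultures of a line.

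Retinoids reach cells as retinol, which is stored as retinyl esters or oxidised through retinaldehyde to retinoic acid. Retinoic acid binds receptors of the RAR family, which pair with RXR on direct repeats in DNA, and it is bound in the cytosol by the CRABP proteins and hydroxylated by CYP26 enzymes. Dhrs3 returns retinaldehyde to retinol. Rarb, Dhrs3 and the Cyp26 genes are among the textbook targets of retinoic acid itself, which are not all named here. Stellate cells lose their retinoid droplets when they become myofibroblasts.

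Library totals lay between 22168953 and 29421447 counts. Lrat, the enzyme that esterifies retinol and a defining marker of quiescent stellate cells, had 0 or 1 count in every library, and Gfap had at most 9. Summed over 9 stellate cell and fibroblast markers, the level was 3810 to 5080 CPM (counts scaled by TMM-adjusted library size) in control, 8940 to 15500 in TGF-beta, 3500 to 4010 in CM and 1900 to 3510 in CM with neratinib, while Ngfr went from 11 to 28 counts in control to 0 to 5, 1 to 12 and 1 to 2. Most of the rise in TGF-beta was collagen, with Col1a1 at 1350 to 2090 CPM in control and 5240 to 10500 in TGF-beta, and Col1a2 at 590 to 1160 and 1880 to 3040. Vim and Pdgfrb had higher ranges there too. Pdgfra went the other way, from 312 to 596 CPM to 56.7 to 198, and Des did not rise (1.29 to 3.33 and 0.714 to 2.92 CPM). The part of these shifts in the results was not tested. Summed over 8 epithelial markers, the level was 15.8 to 23.4 CPM in control, 14.8 to 20.2 in TGF-beta, 20.2 to 41.5 in CM of code T8 and 145 to 175 in CM of code T6, and with neratinib 9.70 to 50.2 in T8 and 140.0 to 311 in T6. The sum over 7 mesothelial markers was 2.43 to 31.0 CPM in control, 5.60 to 21.4 in TGF-beta, 44.0 to 125 in CM and 20.3 to 206 with neratinib, while the defining marker Lrrn4 had at most 1 count and Upk3b at most 4. That list shares Krt8 and Krt18 with the epithelial one, and its other 5 genes summed to 1.97 to 30.7 CPM in control, 2.78 to 12.4 in TGF-beta, 20.3 to 57.4 in CM and 11 to 42.3 with neratinib. Islet markers had no library above 3 counts, and the leukocyte gene Ptprc had at most 1 count. The sum over 4 macrophage markers was 1.76 to 3.50 CPM in all libraries but CM with neratinib PSC4 replicate 1, where it was 13.1 CPM with Cd68 at 289 counts. Without that library the members called in CM with neratinib numbered 5 against control (background 35.1%) and 1 against CM (background 14.3%). These counts equal those with it, but against control Aldh1a3 lost its call and Crabp1 gained one. The libraries labelled PSC4 replicate 1 resembled PSC5 more than PSC4 for several of the 9 genes. The likeness was not confined to these genes. Across all genes tested, after removal of group means, control PSC4 replicate 1 had r of -0.423 and -0.361 with TGF-beta PSC4 replicates 2 and 3. With TGF-beta PSC5 replicates 1 and 2 its r was 0.304 and 0.384. The main fit uses the lines as labelled, and whether these labels are right was not tested. Results are also given without the libraries labelled PSC4 replicate 1, and without the T6 libraries.

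Against control, TGF-beta moved the retinoid genes in opposite directions within the enzyme family that makes retinoic acid, with Aldh1a3 raised 29.4-fold and Aldh1a1 and Aldh1a2 lowered, the latter in a call that 7 of 17 alternatives ended. CM raised the retinoic acid receptor gene Rarb 2.93-fold, the reductase Dhrs3 3.24-fold and the hydroxylase Cyp26b1 6.53-fold, and lowered Stra6, a call that 10 of 18 alternatives ended. With neratinib in the CM, Rarb, Dhrs3 and Cyp26b1 were also called higher than control. The calls of Dhrs3 and Cyp26b1 were lost in both conditioned media without the T6 libraries (adjusted p 0.0502 to 0.106), and that of Rarb was not. Removing them takes every replicate 2 library out of both conditioned media and leaves smaller groups. Calls over all genes then fell from 14.2% to 7.58% in CM and from 43.1% to 31.4% in CM with neratinib, against control. Medium code and group size cannot be told apart in these losses. The gene that differed between CM with and without neratinib was Crabp1, which was 6.26-fold lower with the inhibitor, a call also lost without the T6 libraries.

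Genes with an adjusted p under 0.05 in edgeR's quasi-likelihood test are called changed. TGF-beta changed 6 of the 9 (4 higher, 2 lower), where 40.2% of all genes tested were called (19.7% higher, 20.5% lower). CM changed 4 (3 higher, 1 lower), where 14.2% of all genes were called (7.05% higher, 7.14% lower). CM with neratinib changed 5 against control (3 higher, 2 lower), where 43.1% of all genes were called (22.2% higher, 20.9% lower). Those 3 comparisons share the control libraries. Neratinib within CM changed 1 (lower), with 20.5% of all genes called (10.8% higher, 9.63% lower), and CM against TGF-beta changed 4 (1 higher, 3 lower), with 35.3% of all genes called (17.8% higher, 17.5% lower). The share of members called was above the background share in 4 of these comparisons and below it in the comparison of neratinib within CM. The 9 genes are few and were chosen with earlier results of these data known, so these shares are a description only.

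The median log2 fold change of the 9 genes was 0.94 with TGF-beta, 0.70 in CM and -1.13 in CM with neratinib, all against control, beside medians over all genes tested of -0.02, 0.00 and 0.00. The CPM ranges of the groups did not overlap for 3 of the 9 with TGF-beta, 4 in CM and 3 in CM with neratinib, where 32.7%, 19.8% and 29.4% of all genes tested did not overlap. Without the T6 libraries the calls numbered 5, 1 and 4 (background 37.1%, 7.58% and 31.4%). Without the libraries labelled PSC4 replicate 1 they numbered 7, 4 and 7 (background 49.4%, 18.1% and 40.3%). With the replicate number as a block, 8 members were called in CM with neratinib against control in place of 5, where 52.4% of all genes were called. The block gave 7 calls with TGF-beta (background 50.9%), 5 in CM (23.3%), 1 for neratinib within CM (32.8%) and 5 for CM against TGF-beta (43.4%).

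**Figure D1:**
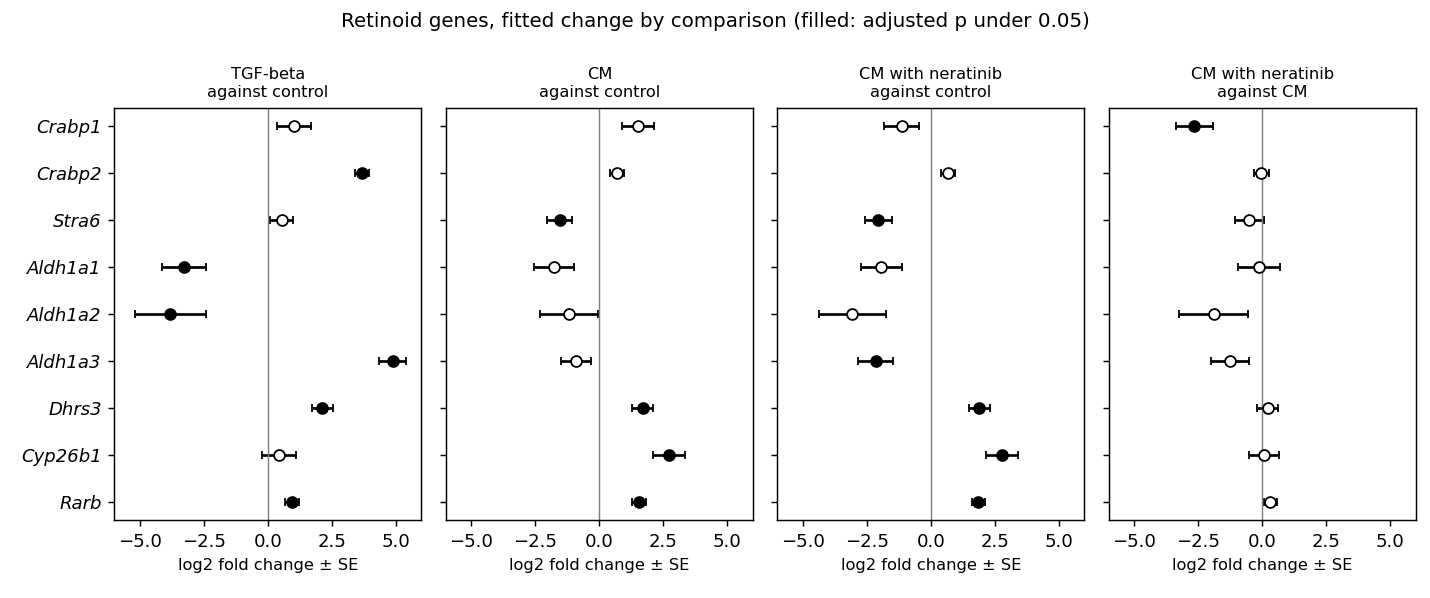
Fitted log2 fold change of the 9 retinoid genes in 4 comparisons, with horizontal bars of 1 standard error; filled points have an adjusted p under 0.05. Aldh1a3 and Crabp2 lie at 4.88 and 3.69 with TGF-beta while Rarb, Dhrs3 and Cyp26b1 lie between 1.55 and 2.78 in both conditioned media, and Crabp1 is the filled point for neratinib within CM.

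**Figure D2:**
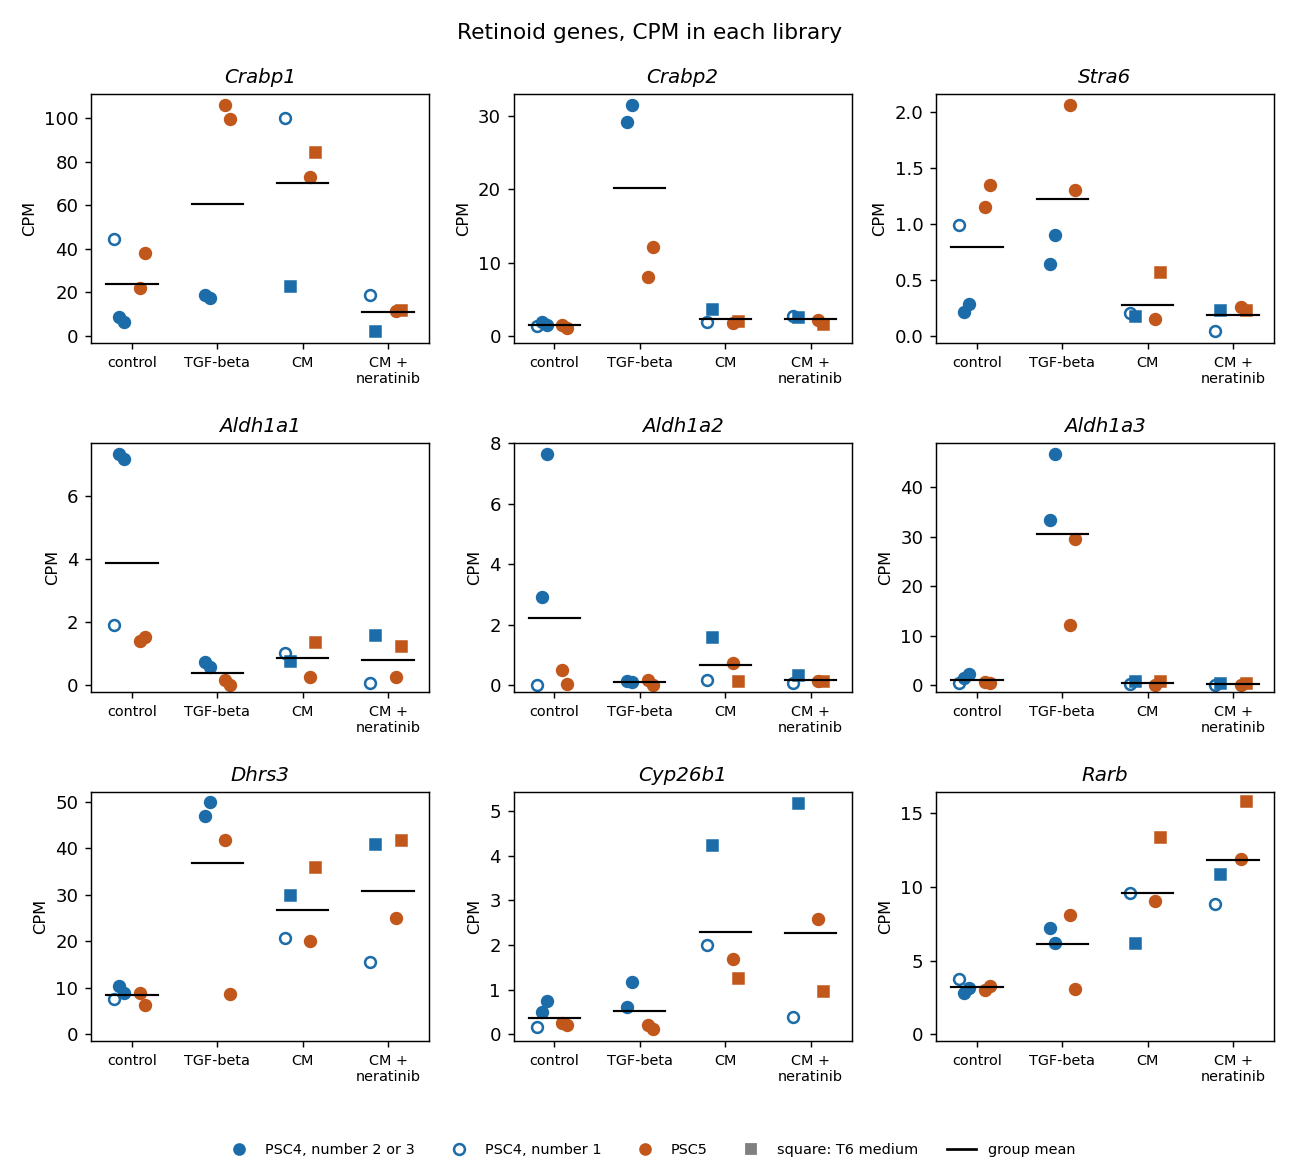
CPM of each retinoid gene in every library, by medium, on linear axes that differ between panels; blue is PSC4 (open for replicate 1), orange is PSC5, squares are libraries in T6 medium and the line is the group mean. The Aldh1a3 and Crabp2 points of TGF-beta sit above all others, while the open PSC4 point of control lies with PSC5 for Crabp1, Aldh1a1, Aldh1a2 and Stra6.

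Stra6, the membrane receptor that takes up retinol from its plasma carrier, lies on GRCm38 chromosome 9 at 58063788 to 58153996 on the plus strand. It was scarce, at 1 to 48 counts a library. Its control values were 0.993, 0.214 and 0.282 CPM in PSC4 replicates 1 to 3 and 1.15 and 1.35 CPM in PSC5 replicates 1 and 2. In CM they were 0.204 and 0.176 CPM in PSC4 replicates 1 and 2 and 0.153 and 0.570 CPM in PSC5, and with neratinib 0.0425 and 0.233 CPM in PSC4 and 0.259 and 0.229 CPM in PSC5. The high control libraries were thus those of PSC5 and the library labelled PSC4 replicate 1, and the 2 low ones overlapped with both conditioned media. Stra6 fell by 1.55 in CM in log2 units (SE 0.49, adjusted p 0.0488 in edgeR) and by 2.06 in CM with neratinib (SE 0.53, adjusted p 0.00613). The call in CM was lost under 10 of 18 alternatives, in which the adjusted p ranged up to 0.161, among them the removal of CM PSC4 replicate 1 (0.0865), CM PSC4 replicate 2 (0.103), CM PSC5 replicate 1 (0.161), control PSC4 replicate 1 (0.101), control PSC5 replicate 1 (0.0890) and control PSC5 replicate 2 (0.106). In TGF-beta the values were 0.638 and 0.903 CPM in PSC4 replicates 2 and 3 and 2.06 and 1.30 CPM in PSC5, a log2 difference from control of 0.55 (SE 0.45, adjusted p 0.356) that did not pass the test. CM lay below TGF-beta with no overlap, at a log2 difference of -2.10 (SE 0.51, adjusted p 0.00487).

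Crabp1, a cytosolic carrier of retinoic acid, lies on chromosome 9 at 54764748 to 54773110 on the plus strand and had the highest level per kilobase of the 9 genes in all 4 media. Its control values were 44.3, 8.58 and 6.41 CPM in PSC4 replicates 1 to 3 and 21.9 and 37.9 CPM in PSC5. In CM they were 100 and 23.1 CPM in PSC4 replicates 1 and 2 and 73.1 and 84.5 CPM in PSC5, and with neratinib 18.6 and 2.49 CPM in PSC4 and 11.5 and 11.9 CPM in PSC5. Every CM library with neratinib lay below every CM library without it, which 18.7% of all genes tested showed in either direction. Crabp1 fell by 2.65 on the log2 scale with neratinib in CM (SE 0.72, adjusted p 0.0195 in edgeR), and in the 4 pairs of the same line and replicate number the differences lay between -3.18 and -2.43. With the replicate number as a block the value was -2.76 (adjusted p 2.48e-06). The call was lost without CM PSC4 replicate 1 (-2.01, adjusted p 0.0837), without CM with neratinib PSC5 replicate 2 (-2.53, adjusted p 0.0623), with these 2 groups fitted alone (-2.66, adjusted p 0.0550) and without the T6 libraries (-2.51, adjusted p 0.192), where 1.31% of all genes tested were called.

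Against control, Crabp1 gave differences in the same direction in every pair of a medium. The main test, which has no block, did not call them, while 4 of 18 alternatives did in each medium. In TGF-beta it was at 19.0 and 17.5 CPM in PSC4 replicates 2 and 3 and at 106 and 99.5 CPM in PSC5, so that the PSC4 libraries overlapped with control. The log2 difference was 1.02 (SE 0.66, adjusted p 0.242), with pairs between 1.14 and 2.26, and with the replicate block it was 1.57 (adjusted p 4.91e-06). With no block and the libraries labelled PSC4 replicate 1 removed it was 1.56 (SE 0.17, adjusted p 1.88e-05). With those libraries counted as PSC5 it was 1.44 (adjusted p 2.46e-05). In CM it was 1.51 (SE 0.64, adjusted p 0.13), with pairs between 1.15 and 1.74, and with the block 1.35 (adjusted p 0.000124). In CM with neratinib it was -1.13 (SE 0.68, adjusted p 0.19), with pairs between -1.75 and -0.93, and with the block -1.4 (adjusted p 4.18e-05). Without control PSC4 replicate 1 alone the adjusted p was 0.0475 for TGF-beta (1.60) and 0.0331 for CM (2.22), and without CM with neratinib PSC4 replicate 1 it was 0.0491 for that medium (-1.98). The control libraries alone ran from 6.41 to 44.3 CPM.

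**Figure D3:**
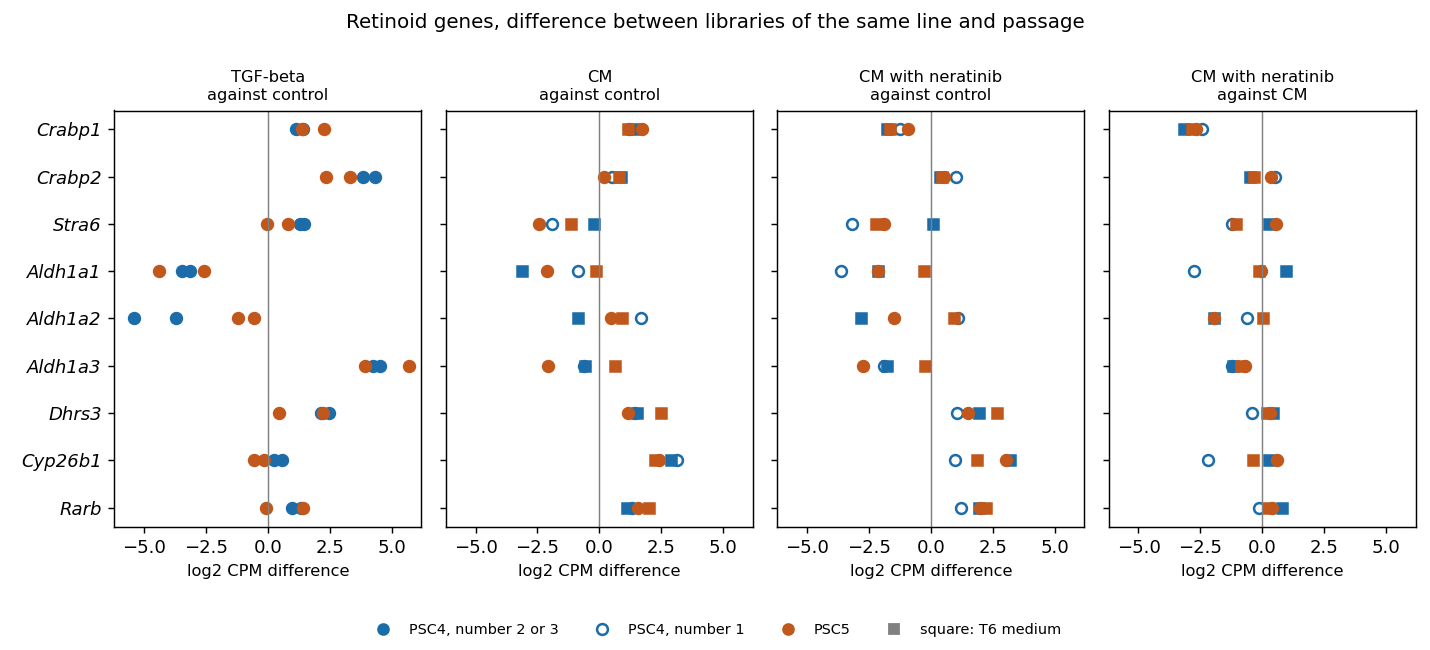
Difference in log2 CPM (prior count 2) between libraries of the same line and replicate number, 1 point per pair, for 4 comparisons; symbols as in the plot of CPM by library. For Crabp1 the 4 points lie to the right of 0 in TGF-beta and CM and to the left of 0 in both comparisons of CM with neratinib.

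Crabp2, the carrier that delivers retinoic acid to nuclear receptors, lies on chromosome 3 at 87948666 to 87953376 on the plus strand. In control it was at 1.31, 1.97 and 1.48 CPM in PSC4 replicates 1 to 3 and at 1.54 and 1.13 CPM in PSC5, and in TGF-beta at 29.2 and 31.5 CPM in PSC4 replicates 2 and 3 and at 8.08 and 12.1 CPM in PSC5. The groups did not overlap, and both PSC4 libraries in TGF-beta were above both PSC5 libraries. Crabp2 rose by 3.69 on the log2 scale with TGF-beta (SE 0.28, adjusted p 1.87e-07 in edgeR, 12.9-fold). The difference of this effect between the lines was -1.34 for PSC5 against PSC4 (SE 0.44, unadjusted p 0.00990, adjusted p 0.987), which did not pass the test. The CM libraries held 1.90, 3.67, 1.76 and 2.04 CPM and those with neratinib 2.72, 2.57, 2.25 and 1.60 CPM in PSC4 replicates 1 and 2 and PSC5 replicates 1 and 2. These levels were higher than in the control library of the same number in 4 of 4 pairs in each medium, at log2 differences of 0.70 (SE 0.28, adjusted p 0.11) and 0.67 (SE 0.28, adjusted p 0.0665) that did not pass, and with the block the second was 0.76 (adjusted p 0.0393). Without control PSC5 replicate 1 it was 0.83 (adjusted p 0.0370). CM lay below TGF-beta, at a log2 difference of -2.99 (SE 0.30, adjusted p 2.91e-06).

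The 3 retinaldehyde dehydrogenases carry out the irreversible step to retinoic acid. Aldh1a3, on chromosome 7 at 66390890 to 66427517 on the minus strand, was at 0.517, 1.36 and 2.36 CPM in control PSC4 replicates 1 to 3 and at 0.718 and 0.496 CPM in PSC5. With TGF-beta it was at 33.4 and 46.6 CPM in PSC4 replicates 2 and 3 and at 12.1 and 29.6 CPM in PSC5, each above every control library. It rose by 4.88 in log2 units (SE 0.52, adjusted p 5.32e-06 in edgeR). In CM it was at 0.306 and 0.882 CPM in PSC4 and 0.115 and 0.805 CPM in PSC5, and with neratinib at 0.0851 and 0.350 CPM in PSC4 and 0.0432 and 0.412 CPM in PSC5. The neratinib libraries all lay below control, and Aldh1a3 fell there by 2.15 (SE 0.69, adjusted p 0.0204). That call was lost without control PSC4 replicate 3 (-1.77, adjusted p 0.0531) and without CM with neratinib PSC4 replicate 1 (-1.77, adjusted p 0.0773), and it rests on 1 to 9 counts a library in the neratinib group. It was -3.88 (adjusted p 0.00976) without the T6 libraries. The difference between CM and control was -0.90 (SE 0.58, adjusted p 0.334), and CM lay below TGF-beta at a log2 difference of -5.78 (SE 0.61, adjusted p 5.21e-06, 54.8-fold lower).

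Aldh1a1, on chromosome 19 at 20492715 to 20643465 on the plus strand, was at 1.91, 7.33 and 7.19 CPM in control PSC4 replicates 1 to 3 and at 1.4 and 1.52 CPM in PSC5. With TGF-beta it was at 0.751 and 0.578 CPM in PSC4 replicates 2 and 3 and at 0.172 and 0 CPM in PSC5, all below control. Aldh1a1 fell by 3.27 in log2 units (SE 0.85, adjusted p 0.00640 in edgeR), the reverse of Aldh1a3 in the same libraries. In CM it was at 1.02 and 0.776 CPM in PSC4 and 0.268 and 1.37 CPM in PSC5, below every control library, yet the difference of -1.78 (SE 0.79, adjusted p 0.151) did not pass. With neratinib it was at 0.0851 and 1.59 CPM in PSC4 and 0.259 and 1.24 CPM in PSC5, a difference of -1.93 (SE 0.80, adjusted p 0.0652), which was -1.96 (adjusted p 0.0238) with the block, -2.59 (adjusted p 0.0296) without CM with neratinib PSC5 replicate 2 and -3.89 (adjusted p 0.016) without the T6 libraries. Aldh1a7, a near-identical copy, moved alongside, at 0.862 to 5.00 CPM in control and 0 to 0.15 CPM in TGF-beta, so how reads divide between the copies is uncertain.

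Aldh1a2, on chromosome 9 at 71215789 to 71296243 on the plus strand, was uneven among the control libraries, at 0, 2.93 and 7.64 CPM in PSC4 replicates 1 to 3 and at 0.503 and 0.0354 CPM in PSC5. In TGF-beta it had 0 to 4 counts a library, or 0.15 and 0.108 CPM in PSC4 replicates 2 and 3 and 0.172 and 0 CPM in PSC5. The low control libraries overlapped with that range. Aldh1a2 fell by 3.81 in log2 units (SE 1.38, adjusted p 0.0395 in edgeR), a call lost under 7 of 17 alternatives: without TGF-beta PSC4 replicate 2 (adjusted p 0.113), PSC4 replicate 3 (0.124) or PSC5 replicate 2 (0.0823), without control PSC4 replicate 2 (0.0593), PSC4 replicate 3 (0.104) or PSC5 replicate 1 (0.0529), and without the T6 libraries (0.0785). In CM it was at 0.170 and 1.59 CPM in PSC4 and 0.726 and 0.134 CPM in PSC5, and with neratinib at 0.0851 and 0.350 CPM in PSC4 and 0.13 and 0.137 CPM in PSC5. Neither differed from control by the test, at -1.18 (SE 1.14, adjusted p 0.537) and -3.07 (SE 1.31, adjusted p 0.0706), and without control PSC4 replicate 1 (-3.38, adjusted p 0.0228) or control PSC5 replicate 2 (-3.48, adjusted p 0.0413) the second passed. CM was 2.63 above TGF-beta (SE 1.42, adjusted p 0.167), and 3.92 above it with the block (adjusted p 0.00459).

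Dhrs3, which reduces retinaldehyde and so lowers the substrate for retinoic acid, lies on chromosome 4 at 144892827 to 144928209 on the plus strand. Its control values were 7.51, 10.4 and 8.91 CPM in PSC4 replicates 1 to 3 and 8.80 and 6.38 CPM in PSC5. With TGF-beta it was at 47.0 and 49.9 CPM in PSC4 replicates 2 and 3 and at 41.7 and 8.70 CPM in PSC5 replicates 1 and 2. PSC5 replicate 2 alone thus stayed within the control range, 0.44 above its control of the same number on the log2 scale where the other 3 pairs lay between 2.16 and 2.47. Dhrs3 rose by 2.13 (SE 0.40, adjusted p 0.000736 in edgeR), and by 2.46 without that library (SE 0.29, adjusted p 2.41e-05). CM held it at 20.6 and 30.0 CPM in PSC4 replicates 1 and 2 and 20.0 and 36.0 CPM in PSC5, and with neratinib at 15.5 and 40.8 CPM in PSC4 and 25 and 41.7 CPM in PSC5. All 8 of these libraries lay above all 5 control libraries. Dhrs3 rose by 1.69 in CM (SE 0.40, adjusted p 0.0142) and by 1.90 in CM with neratinib (SE 0.41, adjusted p 0.00193).

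In both conditioned media the T6 libraries held more Dhrs3 than the T8 libraries of the same line. Adjusted for group and for line with replicate number, the T6 term of edgeR was 1.19 in log2 units (SE 0.53, unadjusted p 0.0471, adjusted p 0.757). Of the 13923 genes tested 0 (0.0%) were called in that comparison, where 906 had an unadjusted p under 0.05. Without the T6 libraries the change of Dhrs3 was 1.31 in CM (adjusted p 0.106) and 1.34 in CM with neratinib (adjusted p 0.0502). The T6 libraries also held the higher epithelial sums given above, and the part of these in the level of Dhrs3 was not tested. The 5 mesothelial markers outside the epithelial list, here mostly Msln, summed to 20.3 to 57.4 CPM in T6 and 34.1 to 46.3 in T8 in CM, and with neratinib to 11 to 42.3 and 17.2 to 20.3.

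Cyp26b1, which hydroxylates retinoic acid for removal, lies on chromosome 6 at 84571414 to 84593908 on the minus strand. It had 4 to 21 counts a library in control, or 0.159, 0.500 and 0.740 CPM in PSC4 replicates 1 to 3 and 0.251 and 0.213 CPM in PSC5. The CM level was 2.00 and 4.23 CPM in PSC4 replicates 1 and 2 and 1.68 and 1.27 CPM in PSC5, all above control. With neratinib it was at 0.383 and 5.17 CPM in PSC4 and 2.59 and 0.962 CPM in PSC5, and the lowest of these, PSC4 replicate 1, overlapped with control. Cyp26b1 rose by 2.71 on the log2 scale in CM (SE 0.63, adjusted p 0.0123 in edgeR) and by 2.78 in CM with neratinib (SE 0.64, adjusted p 0.00304), in 4 of 4 pairs each. Without the T6 libraries the changes were 2.41 (adjusted p 0.0869) and 2.33 (adjusted p 0.0606). The T6 term of edgeR, adjusted for group and for line with replicate number, was -0.11 (SE 0.67, adjusted p 0.99). In both conditioned media the T6 library itself was above the T8 library in PSC4 and below it in PSC5. In TGF-beta it was at 0.601, 1.16, 0.215 and 0.122 CPM, a difference from control of 0.45 (SE 0.66, adjusted p 0.630) with 2 of 4 pairs higher. CM was above TGF-beta with no overlap, by 2.26 (SE 0.67, adjusted p 0.0157), and by 1.95 without the T6 libraries (adjusted p 0.114).

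Rarb encodes the retinoic acid receptor whose own promoter carries the best known retinoic acid response element, and its promoter is shown because Rarb rose in all 3 media. The sequence is from RefSeq on GRCm38.p6, the 250 bases before an annotated start on the minus strand, chr14:16575477-16575726, read 5′ to 3′, with the direct repeat in capitals.
Rarb promoter: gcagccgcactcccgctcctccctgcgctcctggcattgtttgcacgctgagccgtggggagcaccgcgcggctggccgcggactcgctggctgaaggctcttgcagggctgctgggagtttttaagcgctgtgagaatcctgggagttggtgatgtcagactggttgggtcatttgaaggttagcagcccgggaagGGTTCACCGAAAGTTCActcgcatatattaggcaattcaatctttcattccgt
The consensus hexamer AGGTCA of these receptors, the hexamer AGTTCA of the element in capitals, its partner GGTTCA in that element and the further variant GGGTCA were searched on both strands from 250 bases before to 50 after each start, alone and as direct repeats spaced by 1, 2 or 5 bases, so that each repeat also counts as 2 hexamers. RefSeq windows matched 7 of the 9 genes, 13 windows in all, and none was held for Crabp2 and Aldh1a3. The Rarb window holds the repeat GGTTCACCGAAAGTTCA with a spacer of 5, 53 to 37 bases before the start, from which the hexamers AGTTCA and GGTTCA were taken, so that this match was fixed by the search and is shown as a description only. Repeats with that spacer were found in 0.0975% of 32817 promoter windows of this length, with a spacer of 1 in 0.222% and of 2 in 0.268%, and a single hexamer in 43.7%. Single hexamers were also present in 1 window each of Aldh1a1 and Stra6. A match describes letters only, and elements outside these windows were not searched.

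Rarb lies on chromosome 14 at 16430839 to 16819156 on the minus strand. The promoter shown above thus precedes a start inside this span, and counts per gene do not tell the starts apart. Rarb was even among control libraries, at 3.74, 2.79 and 3.14 CPM in PSC4 replicates 1 to 3 and 2.98 and 3.30 CPM in PSC5. CM held it at 9.58 and 6.21 CPM in PSC4 replicates 1 and 2 and 9.06 and 13.4 CPM in PSC5, and with neratinib at 8.81 and 10.9 CPM in PSC4 and 11.9 and 15.8 CPM in PSC5. All 8 libraries lay above control. Rarb rose by 1.55 on the log2 scale in CM (SE 0.26, adjusted p 0.00171 in edgeR) and by 1.86 in CM with neratinib (SE 0.26, adjusted p 9.41e-05), and it was called in both under each of the 18 alternatives run. Without the T6 libraries the changes were 1.55 (adjusted p 0.0111) and 1.71 (adjusted p 0.0022). With TGF-beta it was at 7.21 and 6.17 CPM in PSC4 replicates 2 and 3 and 8.12 and 3.09 CPM in PSC5, where PSC5 replicate 2, the library low in Dhrs3, again lay within the control range. Rarb rose by 0.94 with TGF-beta (SE 0.26, adjusted p 0.00943), and by 1.18 without that library (adjusted p 0.000365).

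The last exons of Rarb share 1793 of the 3108 bases of its longest coding transcript with Top2b on the opposite strand, and the labels do not say whether the counts use strand, so reads there cannot be told apart. Top2b, a DNA topoisomerase, was at 193 ± 19.3 CPM in control (SD, n = 5), 165 ± 6.76 in TGF-beta, 170.0 ± 20.3 in CM and 130 ± 11.8 in CM with neratinib (n = 4 each). Its log2 differences from control were -0.23 (adjusted p 0.0435), -0.19 (adjusted p 0.153) and -0.58 (adjusted p 0.000168) in edgeR, in TGF-beta, CM and CM with neratinib, and the part of shared reads in the values of Rarb was not tested.

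Neratinib within CM left no other called change among these genes. The log2 differences between CM with and without neratinib were 0.31 for Rarb (SE 0.26, adjusted p 0.439), 0.21 for Dhrs3 (SE 0.41, adjusted p 0.761), 0.07 for Cyp26b1 (SE 0.60, adjusted p 0.950) and -0.03 for Crabp2 (SE 0.29, adjusted p 0.957), all with errors that leave room for changes in either direction. Those of Aldh1a1, Aldh1a2, Aldh1a3 and Stra6 were -0.14, -1.90, -1.25 and -0.51, with adjusted p of 0.922, 0.339, 0.257 and 0.572 and few counts.

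Between CM and TGF-beta, both of which raised Rarb and Dhrs3, the test called a difference for neither gene, at 0.61 for Rarb (SE 0.27, adjusted p 0.0905) and -0.43 for Dhrs3 (SE 0.42, adjusted p 0.455). Without CM PSC4 replicate 2 the difference of Rarb was 0.78 (adjusted p 0.0446). The media differed for Crabp2, Aldh1a3 and Stra6, lower in CM, and for Cyp26b1, higher in CM, and these 4 genes had no overlap between the groups (31.5% of all genes had none).

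Per kilobase of the longest coding transcript, which allows levels to be compared between genes, Crabp1 led in control at 29.7 ± 21.2 CPM per kb (SD, n = 5), followed by Dhrs3 at 3.60 ± 0.657. Aldh1a1 at 1.64 ± 1.31, Crabp2 at 1.60 ± 0.334, Rarb at 1.03 ± 0.116 and Aldh1a2 at 0.982 ± 1.44 came next, of which each overlapped with the next in range except Crabp2 and Rarb (1.22 to 2.11 and 0.897 to 1.2). Aldh1a3 (0.317 ± 0.230), Stra6 (0.259 ± 0.168) and Cyp26b1 (0.0829 ± 0.0542) were lowest, and also overlapped with their neighbours. With TGF-beta the order became Crabp1 (75.3 ± 60.8), Crabp2 (21.7 ± 12.7), Dhrs3 (15.8 ± 8.15) and Aldh1a3 (8.84 ± 4.14, n = 4 each), each overlapping with the next in range. In both conditioned media the first 3 were Crabp1, Dhrs3 and Rarb, at 87.6 ± 41.6, 11.4 ± 3.31 and 3.07 ± 0.948 CPM per kb in CM and 13.9 ± 8.24, 13.2 ± 5.44 and 3.82 ± 0.951 with neratinib, where Crabp1 and Dhrs3 overlapped in range.

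The lines were compared over all 4 media together, not in control medium alone, and PSC5 was at later passages than PSC4 throughout, so line and passage cannot be told apart. Over all 17 libraries PSC5 was lower than PSC4 in Crabp2, at a log2 difference of -0.72 (SE 0.20, adjusted p 0.0461 in edgeR), 1 of 9 members called where 6.97% of all genes were (2.18% higher, 4.78% lower in PSC5). Without the libraries labelled PSC4 replicate 1, 7 of the 9 were called, where 42.6% of all genes were: PSC5 was higher in Crabp1 by 2.14 (adjusted p 1.16e-06) and Stra6 by 1.33 (adjusted p 0.00903), and lower in Crabp2 (-0.95, adjusted p 0.00244), Aldh1a1 (-1.65, adjusted p 0.0218), Aldh1a2 (-2.63, adjusted p 0.0106), Aldh1a3 (-1.08, adjusted p 0.0226) and Cyp26b1 (-1.67, adjusted p 0.000474). No effect of a medium differed between the lines by edgeR's interaction test for any of the 9, with 0 of 13923 genes (0.0%) called for TGF-beta, CM or neratinib within CM. Unadjusted p under 0.05 were found there for 601, 43 and 237 genes, 1 of them a member (Crabp2, given above).

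The rest of the pathway was followed as 49 further genes for storage, transport, oxidation, cleavage, clearance, reception and response, of which 31 passed the filter. TGF-beta changed 15 of the 31 (5 higher, 10 lower, 48.4%), CM 9 (6 higher, 3 lower, 29%), CM with neratinib 10 against control (7 higher, 3 lower, 32.3%) and neratinib within CM 4 (2 higher, 2 lower, 12.9%), beside the background shares given above. Without the T6 libraries these counts were 15, 2, 7 and 1 (background 37.1%, 7.58%, 31.4% and 1.31%). With the replicate block they were 18, 9, 14 and 12 (background 50.9%, 23.3%, 52.4% and 32.8%). Genes given with their CPM below had a called log2 change of at least 1, and others are named with their changes or counts alone.

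Upstream of the ALDH1A enzymes, Rdh10, which oxidises retinol to retinaldehyde and limits the rate of retinoic acid synthesis in embryos, was at 17.1 to 19.7 CPM in control. It was at 44.5, 56.8, 86.7 and 65.2 CPM in CM and at 61.8, 105, 146 and 80.6 CPM with neratinib, in PSC4 replicates 1 and 2 and PSC5 replicates 1 and 2. Every one of these libraries lay above control. Rdh10 rose by 1.71 in CM (SE 0.23, adjusted p 0.000419 in edgeR) and by 2.36 with neratinib (SE 0.24, adjusted p 7.1e-06), and without the T6 libraries by 1.71 and 2.36 (adjusted p 0.00718 and 0.000456). In TGF-beta it was at 10.7 to 24.7 CPM, a difference of -0.29 (SE 0.24, adjusted p 0.356). Rdh11, another retinol and retinal oxidoreductase, rose in all 3 media by 0.76, 0.53 and 0.43.

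Of the other listed oxidoreductases, none was called against control in every medium. The alcohol dehydrogenase Adh7 was at 6.09 to 7.39 CPM in control and 3.46 to 5.74 CPM in CM, and at 36.6 and 15.5 CPM in PSC4 and 11.2 and 33.6 CPM in PSC5 in CM with neratinib. It rose there by 2.43 against CM (SE 0.31, adjusted p 0.00024) and by 1.85 against control (SE 0.28, adjusted p 0.000182). Adh1 fell by 3.36 with TGF-beta (SE 0.58, adjusted p 0.000347), from 1.74 to 4.72 CPM in control to 0.0813 to 0.516 CPM, and by 1.60 in CM (SE 0.50, adjusted p 0.0449), a call lost under 10 of 18 alternatives, with adjusted p up to 0.142. Among these were the block (-1.50, adjusted p 0.0561) and the removal of any of the 4 CM libraries, of control PSC4 replicate 2 or 3, or of either PSC5 control. Dhrs9 rose with neratinib within CM by 1.92 (SE 0.54, adjusted p 0.0215), a call lost under 8 of 17 alternatives, with adjusted p up to 0.197. Among these was the removal of CM PSC4 replicate 1 or 2, CM PSC5 replicate 1, or, with neratinib, PSC4 replicate 1 or PSC5 replicate 2.

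Among the storage and transport genes, Rbp4, the secreted retinol carrier, had 0 to 4 counts in control libraries and rose by 2.99, 3.00 and 2.60 in TGF-beta, CM and CM with neratinib (adjusted p 0.00505, 0.0159 and 0.0125), at no more than 39 counts a library. Its call in CM was lost without CM PSC4 replicate 2 (adjusted p 0.0540) or CM PSC5 replicate 1 (adjusted p 0.0645), and both calls in conditioned media were lost without the T6 libraries (adjusted p 0.0536 and 0.0669).

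The sister enzymes of Cyp26b1 were scarce. Cyp26c1 had 5 to 13 counts a library in control and 16 to 35 in CM, and rose by 1.35 in CM (SE 0.42, adjusted p 0.0456), a call lost under 12 of 18 alternatives, with adjusted p up to 0.12, among them the removal of CM PSC4 replicate 1, of either CM library of PSC5 or of any of the 5 control libraries. It fell by 1.81 with neratinib within CM (SE 0.46, adjusted p 0.0144). Without the T6 libraries that adjusted p was 0.199, and without those labelled PSC4 replicate 1 it was 0.0613. Cyp26a1 had 4 to 9 counts in control and 19 to 30 in TGF-beta, a log2 difference of 1.85 (SE 0.73, adjusted p 0.0566) that did not pass. Its differences from control in CM and CM with neratinib were 0.22 (SE 0.77, adjusted p 0.878) and -1.04 (SE 0.9, adjusted p 0.37), also not called.

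The other receptors changed little beside Rarb. Of 5 tested, Rara fell by 0.25 in TGF-beta and by 0.32 in CM, Rxra fell by 0.43 in TGF-beta, and Rarg and Ppard rose by 0.31 and 0.32 in CM with neratinib, all with adjusted p under the threshold in edgeR, while Rxrb was not called in any medium against control.

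Of 8 tested genes used as reporters of retinoic acid exposure, 7 were called with TGF-beta (2 higher, 5 lower), where 40.2% of all genes were. In CM 2 were called (1 higher, 1 lower, background 14.2%), and in CM with neratinib 3, all lower (background 43.1%). Their median log2 differences from control were -0.48, -0.14 and 0.01. Tgm2, a transglutaminase, rose by 1.33 with TGF-beta (SE 0.30, adjusted p 0.00259), and Nrip1, a nuclear receptor corepressor, rose by 0.83 (SE 0.13, adjusted p 0.000158), with CM below TGF-beta at -1.01 (SE 0.14, adjusted p 6.09e-05). Rarres2, which encodes chemerin, was at 10.4, 45.7, 26.7 and 7.04 CPM in CM beside 2.15 to 4.12 CPM in control and 0.0407 to 1.42 CPM in TGF-beta. It rose in CM by 2.85 (SE 0.77, adjusted p 0.0238), fell in TGF-beta by 2.56 (SE 0.93, adjusted p 0.0398) and was 5.42 higher in CM than in TGF-beta (SE 1.00, adjusted p 0.000649). The first of these calls was lost under 5 and the second under 7 of 18 alternatives, with adjusted p up to 0.117 in each. The libraries whose removal ended the call were CM PSC4 replicate 2, CM PSC5 replicate 1 and both PSC5 controls for the rise, and TGF-beta PSC4 replicates 2 and 3 and PSC5 replicate 2 and every control but PSC4 replicate 1 for the fall. For the rise, the T6 libraries together did so too (2.24, adjusted p 0.0999).

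Rarres1 fell by 3.52 in CM with neratinib against control (SE 0.69, adjusted p 0.00111), from 4.25 to 9.86 CPM to 0 to 0.856 CPM. Against CM it fell by 2.20 (SE 0.70, adjusted p 0.0374) and with TGF-beta by 1.61 (SE 0.60, adjusted p 0.0442), calls lost under 8 of 17 and 8 of 18 alternatives, with adjusted p up to 0.251 and 0.129. Against CM these included the removal of any CM library or, with neratinib, of PSC4 replicate 2 or PSC5 replicate 2, and for TGF-beta the removal of TGF-beta PSC4 replicate 2, either TGF-beta library of PSC5 or any control but PSC4 replicate 1. Hoxa5, a homeobox gene induced by retinoic acid in other tissues, fell by 0.48, 0.48 and 0.77 in TGF-beta, CM and CM with neratinib.

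**Figure D4:**
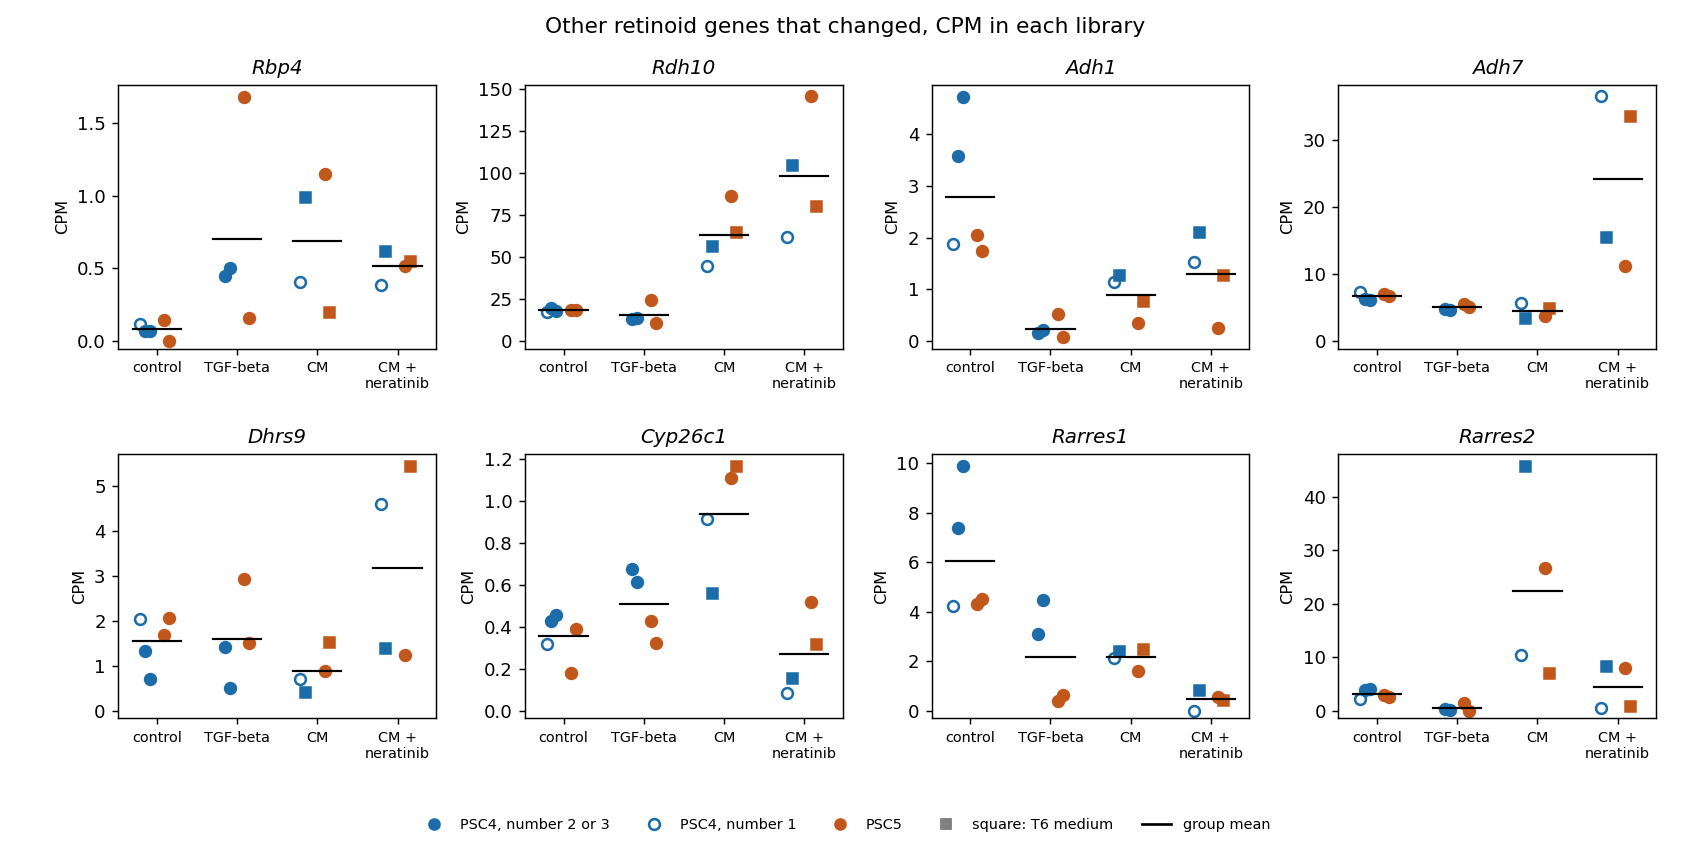
CPM of 8 further retinoid genes in every library, by medium, with symbols as in the plot of the main genes and axes that differ between panels. Rdh10 is above control in all 8 conditioned medium libraries, and Adh7 stands out in CM with neratinib.

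Over the 17 libraries, which share groups and lines, the profiles of the main genes in log2 CPM resembled each other in a few pairs. Pearson's r was 0.851 for Aldh1a3 with Crabp2, 0.789 for Dhrs3 with Rarb and 0.607 for Cyp26b1 with Rarb, and the lowest was -0.617 for Cyp26b1 with Stra6. Of all tested genes, the 3 most alike to Aldh1a3 were Tmcc3 (0.981), Rab11fip4 (0.98) and C1qtnf3 (0.974), and to Crabp2 they were Fstl3 (0.971), Atp6v0d2 (0.966) and Tmem214 (0.961). The closest to Cyp26b1 was Scarb1 (0.960), to Aldh1a1 Dmpk (0.953), to Crabp1 Fanci (0.949), to Stra6 Pkia (0.938), to Rarb Slc43a3 (0.897), to Aldh1a2 Zfp664 (0.884) and to Dhrs3 Galnt3 (0.861).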

How the data were processed

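RNA of 17 libraries was measured. The authors deposited expected counts per Ensembl gene, made with Salmon 1.4.0 on GRCm38 per the submitters' processing notes, which also name DESeq2; the annotation release is not given in the sources used here. The counts were rounded (74.8% of nonzero values were not whole; totals moved by at most 307.9). Symbols and positions came from GENCODE M21. edgeR 4.0.16 (R 4.3.3) fitted group and line over all libraries, with TMM factors, filterByExpr (minimum count 10, total 15) and Benjamini-Hochberg adjustment over 13923 genes; errors are SEs, and the biological coefficient of variation was 19.8%. The script was tested on simulated data. Members and lists were chosen with earlier results of these data known; named are the 9 members and listed genes called at a log2 change of at least 1, and genes outside that rule were named after their values were seen. 1 listed gene that met this rule is not reported here.

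Replicate numbers mark shared passages. After removal of group means, which leaves line differences in, all 22 pairs of libraries of the same line and number correlated above 0.1 across genes (0.120 to 0.635, median 0.299). Of pairs of the same line but another number, 14 of 32 did (median -0.0756, highest 0.613), and of pairs of different lines 14 of 54 (median -0.183). The block by number treats libraries of the same line and number as paired. Alternatives were other scalings, no filter, DESeq2 1.42.0, 2 groups only, the block, and libraries left out; removal of the T6 libraries was chosen after seeing the data.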

Additional observations from a re-analysis of the deposited data

Results flagged for a closer look

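Within 36 groups of 4 or 5 libraries (9 genes in 4 media), 3 held a library that stood apart by Dixon's criterion at the 95% level, where chance gives about 1 in 20. Crabp2 in CM was highest in PSC4 replicate 2, at 3.67 CPM beside 1.76 to 2.04 in the others. Stra6 in CM was highest in PSC5 replicate 2, at 0.570 CPM beside 0.153 to 0.204. Stra6 in CM with neratinib was lowest in PSC4 replicate 1, at 0.0425 CPM (1 count) beside 0.229 to 0.259.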

How the results depend on the processing

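Over the member and listed genes, 1106 values kept direction and call under the alternatives, 99 lost the call, 36 gained it and 27 reversed. The members called in CM against control numbered 1 without the T6 libraries in place of 4. In CM with neratinib against control they numbered 8 with the replicate block and 8 with PSC4 replicate 1 counted as PSC5, in place of 5. For neratinib within CM they numbered 0 without the T6 libraries and 0 with these 2 groups fitted alone, and 0 to 1 with 1 library left out. For PSC5 against PSC4 they numbered 7 without PSC4 replicate 1 in place of 1. All other counts of members stayed within 1.5 times.

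No reversed value had been called. For neratinib within CM, Crabp2 (-0.03) became 0.43 without T6, 0.03 with PSC4 replicate 1 counted as PSC5, 0.01 with the block and -0.21 to 0.11 with 1 library left out (0.01 or 0.04 in between). Aldh1a1 (-0.14) became 0.11 without PSC4 replicate 1 and -0.92 to 0.72 with 1 library left out (0.07 and 0.30 in between). Cyp26b1 (0.07) became -0.08, -0.17 and -0.30 under the same 3 settings as Crabp2 and -0.37 to 0.48 with 1 library left out (-0.35 and -0.12 in between), and Dhrs3 (0.21) -0.04 to 0.47. Cyp26b1 with TGF-beta (0.45) became -0.07 to 0.70. Crabp1 in CM against TGF-beta (0.49) became -0.05 with PSC4 replicate 1 counted as PSC5, -0.10 without it, -0.22 with the block and -0.04 to 0.77 with 1 library left out. Without PSC4 replicate 1 the line differences of the neratinib effect became 0.46 for Crabp1, -0.19 for Dhrs3 and -0.02 for Cyp26b1. The cause of each was not tested.

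The genes called over all tested ones also moved: for neratinib within CM, 2850 became 4563 with the block, 602 with 2 groups and 187 without T6. For CM against control, 1976 became 3240 with the block and 1079 without T6. Upper-quartile scaling moved the median of all genes by less than 0.1. Stra6 had under 50 counts in all 17 libraries, Aldh1a1 and Aldh1a2 in 15, Cyp26b1 in 13 and Aldh1a3 in 12, which limits their precision.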
